A study of Mus musculus with 15 samples.

Results

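The genes described here encode proteins of nucleolar ribosome biogenesis, and they were followed across 15 expression arrays of Myc-CaP cells. The list holds 45 genes named for their function. A gene was measured where the platform annotation gives a probe set to its symbol alone, and where several were, the one that read highest on average across the arrays was used. By this rule 44 of the 45 genes were measured, out of 19297 genes in all, and Noc2l was not analysed here. The 44 comprise 8 RNA polymerase I and nucleolar scaffold genes, 4 box C/D snoRNP genes, 3 box H/ACA snoRNP genes, 16 genes of the small subunit processome and 40S assembly, and 13 genes of 60S assembly.

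Ribosomes are built in the nucleolus. RNA polymerase I transcribes the long ribosomal RNA precursor there. Small nucleolar ribonucleoprotein particles (snoRNPs) modify that precursor, box C/D particles by 2′-O-methylation and box H/ACA particles by pseudouridylation, while the small subunit processome and a separate set of 60S factors fold and cleave it and add ribosomal proteins. Myc is known as an activator of many of these genes, and enlarged nucleoli are a known feature of prostate cancer cells. Twist1 belongs to the basic helix-loop-helix transcription factors, which bind the E-box, and it is known to drive epithelial-mesenchymal transition.

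Myc-CaP is a mouse prostate cancer line with a Myc transgene, which every group carries. There were 5 groups of 3 arrays each. VEC cells received the empty vector, WT cells wild-type Twist1, F191G cells a Twist1 mutated in the Twist box, and AQA and DQD cells Twist1 forms that are given here by their label names, since the labels do not describe them. All cells were transfected, selected and harvested at confluence, and total RNA was labelled for single-colour Affymetrix mouse gene arrays. The labels name replicates A, B and C without saying whether they were separate cultures or transfections, so the p-values measure only spread from array to array, which may be technical. The study stated the comparisons of WT and of F191G with VEC, and 6 further comparisons between groups were made here.

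All values are deposited log2 values, so a difference of 1 is a doubling, and the level of one probe set cannot be set against that of another. Array medians lay between 6.31 and 6.42, and pairwise correlations between arrays ran from 0.969 to 0.998. WT replicate A stood apart: without it the lowest correlation was 0.990. The counts of calls in the comparisons with WT, and the differences of the nucleolar genes called in WT against VEC, are therefore also given without it. The labels assign 8 arrays to batch A and 7 to batch B, and what was batched is not stated. Batch A holds replicates A and B of VEC, WT and AQA and replicate A of DQD and F191G. Values by array are given in the order of replicates A, B and C. The Twist1 probe set read 6.45, 6.71 and 6.13 in VEC, 6.77, 6.85 and 6.75 in WT, 6.87, 6.41 and 6.75 in AQA, 6.62, 6.74 and 6.97 in DQD and 6.65, 6.85 and 6.76 in F191G. The lowest WT array lay just above the highest VEC array, and Twist1 differed by 0.36 (SE 0.147, limma adjusted p = 0.129) between WT and VEC, which did not pass the test. Of the markers of prostate luminal epithelium, Foxa1 read 11.18 ± 0.09 (SD, n = 3) and Krt8 8.20 ± 0.66 (SD, n = 3) in VEC, while the blood cell marker Ptprc read 4.67 ± 0.06 (SD, n = 3) and the endothelial marker Pecam1 5.29 ± 0.08 (SD, n = 3). These 4 probe sets give levels that cannot be ranked against each other, and they are only some of the markers listed. Foxa1 and Krt8 are 2 of the 6 luminal markers measured, and their VEC means lie above the averages of all 6. On VEC replicates A, B and C the luminal markers averaged 7.31, 7.11 and 7.19 and the basal markers 6.87, 6.42 and 6.57. The averages were 6.39, 6.35 and 6.37 for fibroblast and smooth muscle, 5.36, 5.35 and 5.42 for blood cell and 4.89, 4.90 and 4.91 for endothelial markers. These averages cannot be ranked either. In WT against VEC, 1 of 7 blood cell markers rose, Cd68, by 0.61 (SE 0.159, limma adjusted p = 0.0269), and of 5 basal epithelial markers 1, Krt15, fell by 1.73 (SE 0.258, limma adjusted p = 0.00462), while no luminal (6), fibroblast or smooth muscle (7) or endothelial (5) marker was called. Their part in the results was not tested.

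Promoter sequences are shown because both Myc with its partner Max and Twist1 are known to bind E-boxes. The 250 bases before the transcription start came from RefSeq on GRCm38.p6, where 37 of the 44 genes had an entry. Imp4 and Nop2 are shown because they carry the palindromic E-box CACGTG, Nolc1 and Nhp2 because they were lower in WT and carry both another E-box and the motif CCGGAAG, and Ebna1bp2 because it had the smallest p-value in WT against VEC and carries neither. Capitals mark each match to CANNTG, the general E-box, and each match to CCGGAAG on either strand, and these 5 were chosen after the matches and the expression values were seen. The sequences run 5′ to 3′ on the strand of the gene, at chr1:34439579-34439828 (plus strand), chr6:125131633-125131882 (plus strand), chr19:46075597-46075846 (plus strand), chr11:51619523-51619772 (plus strand) and chr4:118620549-118620798 (plus strand).
Imp4: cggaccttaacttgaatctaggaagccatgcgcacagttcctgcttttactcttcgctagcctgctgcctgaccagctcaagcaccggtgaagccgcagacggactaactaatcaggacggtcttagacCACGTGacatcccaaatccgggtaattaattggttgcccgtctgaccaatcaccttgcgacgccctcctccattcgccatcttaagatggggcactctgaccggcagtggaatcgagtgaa
Nop2: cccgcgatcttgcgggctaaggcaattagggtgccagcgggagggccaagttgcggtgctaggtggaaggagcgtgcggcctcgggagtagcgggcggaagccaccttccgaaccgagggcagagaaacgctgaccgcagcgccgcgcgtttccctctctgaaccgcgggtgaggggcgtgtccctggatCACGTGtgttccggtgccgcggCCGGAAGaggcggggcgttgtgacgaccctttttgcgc
Nolc1: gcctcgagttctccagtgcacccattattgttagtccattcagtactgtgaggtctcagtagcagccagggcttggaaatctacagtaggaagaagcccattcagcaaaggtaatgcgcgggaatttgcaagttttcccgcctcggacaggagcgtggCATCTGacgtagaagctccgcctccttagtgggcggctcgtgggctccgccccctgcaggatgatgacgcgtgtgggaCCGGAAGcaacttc
Nhp2: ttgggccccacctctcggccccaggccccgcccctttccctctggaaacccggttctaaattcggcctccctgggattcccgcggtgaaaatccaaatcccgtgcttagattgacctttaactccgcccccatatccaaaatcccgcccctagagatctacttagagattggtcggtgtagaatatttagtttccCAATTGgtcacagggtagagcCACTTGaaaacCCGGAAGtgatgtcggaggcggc
Ebna1bp2: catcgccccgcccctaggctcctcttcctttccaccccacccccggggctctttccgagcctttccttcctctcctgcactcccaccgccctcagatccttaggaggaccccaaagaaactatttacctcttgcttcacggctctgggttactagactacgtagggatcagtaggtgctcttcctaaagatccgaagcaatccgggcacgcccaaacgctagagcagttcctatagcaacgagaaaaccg

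The CACGTG match starts 121 bases before the start of Imp4 and 60 bases before that of Nop2. CACGTG, which both strands share and which is one form of CANNTG, was found in 2 of the 37 promoters (5.41%), and in 7.08% of the 15161 promoters of all measured genes with an entry. CANNTG was found in 17 of the 37 (45.9%) and in 61.5% of all promoters. CCGGAAG, searched on both strands after the sequences had been looked at and unable to overlap CANNTG, was found in 6 of the 37 (16.2%) and in 9.74% of all. Of the 19 genes with a promoter entry that were called lower in WT than in VEC, 1 carried CACGTG and 4 CCGGAAG, and of the 18 not called, 1 and 2 did. A match is a description of these letters in this window and does not show a bound site.

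Nucleolar ribosome biogenesis genes were lowest in the cells with wild-type Twist1. The mean of a gene's 3 WT arrays was the lowest of the 5 group means for 42 of the 44 genes, and AQA came next to lowest after WT for 34 of them. VEC held the highest mean for 15 genes, DQD for 17 and F191G for 9. This order of means was not counted without WT replicate A, which read lowest of all arrays for 42 genes. For 20 of the 44 genes all 3 WT arrays lay below all 12 other arrays, against 5.62% of all genes. Without WT replicate A the number was also 20, against 6.10% of all genes. Leaving out a WT array cannot lower this number, so its staying at 20 tests nothing.

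The average over the 44 genes, relative to the VEC mean of each gene, shows the arrays one by one. It was 0.02, -0.05 and 0.03 on VEC replicates A, B and C, and -0.72, -0.28 and -0.24 on the WT replicates. It was -0.10, -0.22 and -0.13 in AQA, 0.07, -0.03 and -0.01 in DQD, and 0.14, -0.10 and -0.10 in F191G. The 3 WT arrays were the lowest of the 15, and WT replicate A lay far below WT replicates B and C. WT replicate A was the lowest of all 15 arrays for 42 of the 44 genes. In those 42 it lay a median of 0.43 below the lower of the other WT arrays. F191G replicate A was the highest of its group for 40 genes and the highest of all 15 arrays for 25, and DQD replicate A was the highest of its group for 34. In cultures harvested in bulk, fewer cells of a type and less RNA per cell cannot be told apart.

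**Figure D1:**
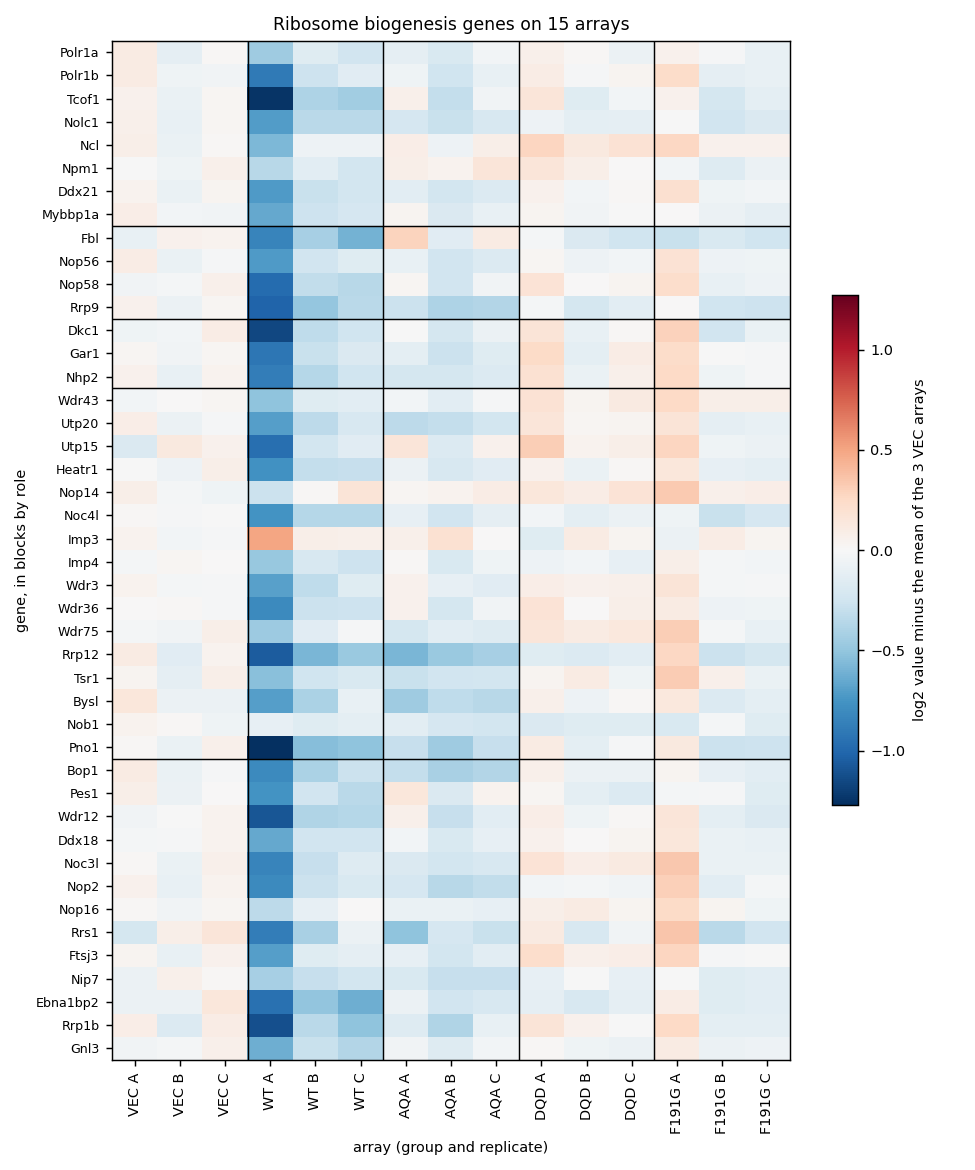
Log2 values of the 44 genes (rows, in blocks by role) on the 15 arrays (columns), each minus the mean of the gene's 3 VEC arrays, with blue below and red above VEC. The WT columns are blue for nearly all genes, most deeply on WT replicate A, which was the lowest of all arrays for 42 of the 44. Imp3 lies above VEC on all 3 WT arrays, and 42 and 41 genes lie below VEC on WT replicates B and C.

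Genes of the DNA replication and mitosis list moved with this pattern. Relative to VEC, the average of the 24 measured genes of that list was -1.69, -0.46 and -0.45 on WT replicates A, B and C. It was 0.12, -0.14 and 0.02 in VEC, 0.12, -0.37 and -0.04 in AQA, 0.27, -0.10 and 0.04 in DQD and 0.27, -0.18 and -0.15 in F191G. WT replicate A was the lowest array of that list too, and DQD and F191G replicates A were the highest. Of the 24 genes, 10 fell in WT against VEC and 0 rose, with a median of -0.87, against 5.72% of all genes that fell and 7.06% that rose. Leaving out WT replicate A gave 5 falls, VEC replicate A or C 0, VEC replicate B, AQA replicate C or DQD replicate C 5, F191G replicate C 6, WT replicate B 21 and WT replicate C 20. The part of these genes' change in the result was not tested.

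The first comparison asked which genes wild-type Twist1 changed relative to the empty vector. In WT, 25 of the 44 nucleolar genes fell and 0 rose, against 5.72% of all genes that fell and 7.06% that rose. Ebna1bp2, Fbl, Noc4l, Gnl3 and Nolc1 had the smallest p-values, Pno1, Rrp12, Tcof1 and Ebna1bp2 the largest falls. The median difference of the 44 genes was -0.43, against -0.009 for all genes, and the values ran from -0.78 for Pno1 to 0.21 for Imp3. The difference was below 0 in 43 of the 44. All 3 WT arrays lay below all 3 VEC arrays for 37 of the 44 genes, against 16.4% of all genes. Calls are limma adjusted p-values under 0.05 from a model of group and batch over all 15 arrays.

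Without WT replicate A, 9 of the 44 genes fell and 0 rose, against 1.69% of all genes that fell, with a median of -0.24 and 42 genes below 0. The remaining WT arrays lay below all VEC arrays for 37 genes, against 22.6% of all genes, a number that leaving out an array cannot lower. The 9 were Ebna1bp2, Fbl, Noc4l, Nolc1, Gnl3, Pno1, Rrp12, Rrp9 and Bop1. VEC replicates also decided the count. With VEC replicate A left out 8 genes fell, against 2.498% of all genes, and with VEC replicate B left out 14, against 3.73%. With VEC replicate C left out 1 fell, Ebna1bp2, against 0.21% of all genes. The median without VEC replicate C was -0.41, with 43 genes below 0. Within batch A, with WT and VEC replicates A and B, the median was -0.51 and limma called 0 of the 44 and 0 of all 19297 genes. There 32 of the 44 had an unadjusted p under 0.05, as did 2903 of all genes. In batch B, with 1 WT and 1 VEC array, the median was -0.25 and 1 gene was called, against 0.41% of all genes that fell. The spread in that fit came from the DQD and F191G pairs alone, and the lone arrays are assumed to vary like them.

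**Figure D2:**
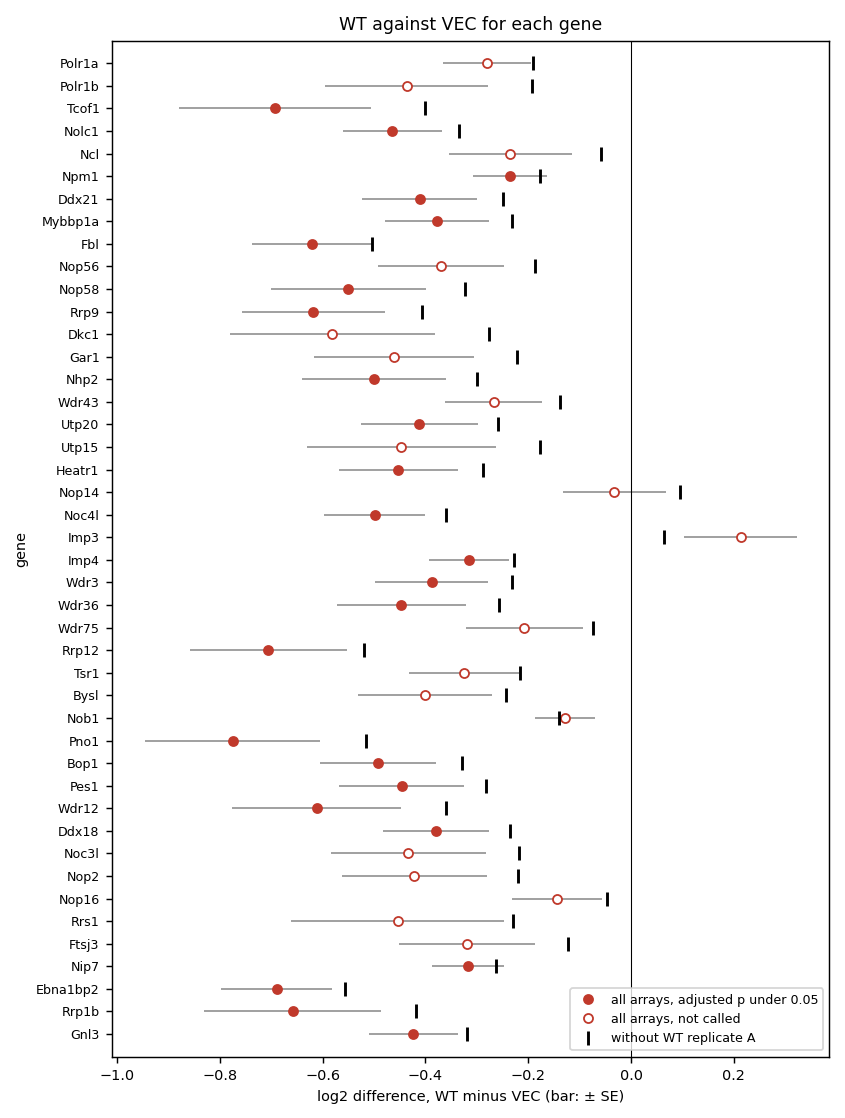
Log2 difference of WT minus VEC for each gene (points, with bars of ± SE), filled where the limma adjusted p was under 0.05, and the difference without WT replicate A (ticks). The 25 filled points all lie left of 0, and the ticks lie closer to 0 for most genes, with a median of -0.24 against -0.43.

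Of the 8 RNA polymerase I and scaffold genes, 5 fell in WT. Nolc1, a nucleolar phosphoprotein that binds snoRNPs, read 10.60, 10.44 and 10.56 in VEC, 9.83, 10.20 and 10.19 in WT, 10.33, 10.25 and 10.33 in AQA, 10.47, 10.41 and 10.42 in DQD and 10.53, 10.30 and 10.35 in F191G. Every WT array lay below every other array, and WT differed from VEC by -0.46 (SE 0.0962, limma adjusted p = 0.0126), or -0.34 (adjusted p = 0.0320) without WT replicate A. Tcof1, the treacle protein that supports RNA polymerase I transcription, read 9.57, 9.43 and 9.54 in VEC, 8.27, 9.12 and 9.08 in WT, 9.58, 9.21 and 9.47 in AQA, 9.67, 9.36 and 9.48 in DQD and 9.57, 9.29 and 9.39 in F191G. Its WT replicate A lay 0.81 below the lower of the other WT arrays, and WT differed from VEC by -0.69 (SE 0.187, limma adjusted p = 0.0314), or -0.40 (adjusted p = 0.0627) without that array, which no longer passed. Mybbp1a, a nucleolar Myb-binding protein, read 11.14, 11.02 and 11.02 in VEC, 10.41, 10.80 and 10.85 in WT, 11.10, 10.88 and 10.97 in AQA, 11.10, 11.02 and 11.05 in DQD and 11.06, 10.99 and 10.95 in F191G. WT lay below every other array and differed by -0.38 (SE 0.102, limma adjusted p = 0.0313) from VEC, or by -0.23 (adjusted p = 0.0995) without WT replicate A. Ddx21, a nucleolar RNA helicase, read 10.76, 10.63 and 10.74 in VEC, 9.996, 10.43 and 10.48 in WT, 10.58, 10.48 and 10.54 in AQA, 10.77, 10.67 and 10.73 in DQD and 10.92, 10.66 and 10.68 in F191G. Again the 3 WT arrays were the lowest, and WT differed from VEC by -0.41 (SE 0.112, limma adjusted p = 0.0324), or by -0.25 (adjusted p = 0.0995) without WT replicate A.

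Npm1, nucleophosmin, one of the most abundant nucleolar proteins, had the smallest difference among the called genes. Npm1 read 11.31, 11.26 and 11.39 in VEC, 10.97, 11.19 and 11.09 in WT, 11.39, 11.36 and 11.47 in AQA, 11.48, 11.40 and 11.33 in DQD and 11.29, 11.15 and 11.25 in F191G. WT lay below VEC, AQA and DQD on every array but overlapped F191G. WT and VEC differed by -0.24 (SE 0.0713, limma adjusted p = 0.0477), or -0.18 (adjusted p = 0.206) without WT replicate A. The genes of the role that did not pass were Polr1a and Polr1b, the large subunits of RNA polymerase I, with -0.28 (SE 0.0864, limma adjusted p = 0.0505) and -0.44 (SE 0.159, limma adjusted p = 0.0893), and Ncl, nucleolin. Ncl read 11.70, 11.55 and 11.64 in VEC, 11.06, 11.57 and 11.57 in WT, 11.71, 11.57 and 11.71 in AQA, 11.91, 11.75 and 11.81 in DQD and 11.90, 11.68 and 11.69 in F191G, and of the WT arrays only replicate A lay outside the range of the other groups. Ncl differed between WT and VEC by -0.23 (SE 0.120, limma adjusted p = 0.231), or -0.06 (adjusted p = 0.772) without that array.

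Of the 4 box C/D snoRNP genes, 3 fell. Fbl, fibrillarin, the methyltransferase of the particle, read 10.43, 10.57 and 10.57 in VEC, 9.68, 10.10 and 9.92 in WT, 10.80, 10.38 and 10.63 in AQA, 10.50, 10.34 and 10.27 in DQD and 10.24, 10.33 and 10.27 in F191G. All WT arrays were the lowest, and the F191G arrays lay below all VEC arrays, while AQA and VEC overlapped. WT differed from VEC by -0.62 (SE 0.117, limma adjusted p = 0.00959), or -0.50 (adjusted p = 0.0289) without WT replicate A. A second Fbl probe set had group means of 9.82 for VEC, 9.38 for WT, 9.84 for F191G, 9.76 for AQA and 9.71 for DQD. Both probe sets put WT lowest, and they disagree on whether AQA and F191G lay above or below VEC. RefSeq lists a pseudogene of Fbl, Fbl-ps2, and the annotation does not say which copy each probe set reads, so the Fbl values are uncertain to that extent. Rrp9, a protein that binds the U3 snoRNP, read 9.87, 9.73 and 9.83 in VEC, 8.79, 9.32 and 9.47 in WT, 9.54, 9.42 and 9.44 in AQA, 9.78, 9.59 and 9.67 in DQD and 9.81, 9.56 and 9.55 in F191G. Its WT range met that of AQA, and WT differed from VEC by -0.62 (SE 0.139, limma adjusted p = 0.0162), or by -0.41 (adjusted p = 0.0294) without WT replicate A. Nop58, a core protein of the particle, read 9.91, 9.93 and 10.01 in VEC, 8.97, 9.63 and 9.60 in WT, 9.97, 9.71 and 9.90 in AQA, 10.12, 9.96 and 9.99 in DQD and 10.17, 9.86 and 9.88 in F191G. WT lay below all other arrays and differed by -0.55 (SE 0.150, limma adjusted p = 0.0329), or by -0.32 (adjusted p = 0.0850) without WT replicate A. Nop56, its partner in the particle, differed by -0.37 (SE 0.122, limma adjusted p = 0.0644) and did not pass.

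Of the 3 box H/ACA snoRNP genes, Nhp2 fell. Nhp2, a core RNA-binding protein of the particle, read 10.09, 9.94 and 10.08 in VEC, 9.15, 9.67 and 9.78 in WT, 9.81, 9.82 and 9.87 in AQA, 10.23, 9.95 and 10.11 in DQD and 10.29, 9.98 and 10.02 in F191G. WT lay below every other array, and WT against VEC differed by -0.50 (SE 0.140, limma adjusted p = 0.0355), or -0.30 (adjusted p = 0.110) without WT replicate A. Dkc1, dyskerin, the pseudouridine synthase, had a larger difference with a larger error. Dkc1 read 9.98, 10.002 and 10.13 in VEC, 8.88, 9.71 and 9.78 in WT, 10.03, 9.81 and 9.96 in AQA, 10.20, 9.95 and 10.05 in DQD and 10.33, 9.79 and 9.95 in F191G. Its 3 WT arrays were the lowest too, with replicate A 0.83 below the lower of the others, and the difference of -0.58 (SE 0.199, limma adjusted p = 0.0721) did not pass. Gar1, a further core protein, differed by -0.46 (SE 0.156, limma adjusted p = 0.0693) and did not pass.

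Of the 16 genes of the small subunit processome and 40S assembly, 8 fell: Noc4l, Rrp12, Pno1, Imp4, Heatr1, Wdr3, Wdr36 and Utp20. Noc4l, a processome component, read 9.85, 9.82 and 9.83 in VEC, 9.07, 9.47 and 9.47 in WT, 9.73, 9.59 and 9.71 in AQA, 9.79, 9.70 and 9.76 in DQD and 9.78, 9.55 and 9.62 in F191G. Its VEC arrays lay close together and all WT arrays were the lowest. WT differed from VEC by -0.50 (SE 0.0986, limma adjusted p = 0.0110), or by -0.36 (adjusted p = 0.0221) without WT replicate A. Pno1, which escorts the pre-40S particle and is needed for cleavage at the 3′ end of 18S ribosomal RNA, read 9.89, 9.79 and 9.93 in VEC, 8.602, 9.33 and 9.36 in WT, 9.58, 9.42 and 9.58 in AQA, 9.98, 9.75 and 9.85 in DQD and 9.99, 9.60 and 9.61 in F191G. It had the largest difference of the 44 genes, -0.78 (SE 0.171, limma adjusted p = 0.0151), or -0.51 (adjusted p = 0.0245) without WT replicate A. Rrp12, an export and assembly factor, read 8.82, 8.57 and 8.75 in VEC, 7.65, 8.13 and 8.24 in WT, 8.14, 8.25 and 8.30 in AQA, 8.56, 8.54 and 8.58 in DQD and 8.97, 8.44 and 8.49 in F191G. AQA lay close to WT and its lowest array within the WT range, and WT differed from VEC by -0.71 (SE 0.153, limma adjusted p = 0.0143), or by -0.52 (adjusted p = 0.0418) without WT replicate A. Imp4, a protein of the U3 snoRNP whose promoter is printed above, read 10.54, 10.59 and 10.57 in VEC, 10.08, 10.36 and 10.30 in WT, 10.58, 10.37 and 10.51 in AQA, 10.50, 10.53 and 10.46 in DQD and 10.64, 10.54 and 10.53 in F191G. WT lay below every other array, with a difference of -0.32 (SE 0.0781, limma adjusted p = 0.0233), or -0.23 (adjusted p = 0.0968) without WT replicate A.

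The other 4 that fell had differences of -0.45 for Heatr1, -0.45 for Wdr36, -0.41 for Utp20 and -0.39 for Wdr3. None of the 4 passed by limma once WT replicate A was left out, with -0.29 (adjusted p = 0.0723) for Heatr1, -0.26 (adjusted p = 0.1002) for Wdr36, -0.26 (adjusted p = 0.121) for Utp20 and -0.23 (adjusted p = 0.130) for Wdr3. Heatr1, Wdr3 and Wdr36 were lower on every WT array than on any other array, while Utp20 overlapped AQA. Wdr36 read 9.87, 9.88 and 9.85 in VEC, 9.06, 9.59 and 9.61 in WT, 9.92, 9.64 and 9.82 in AQA, 10.03, 9.87 and 9.94 in DQD and 9.96, 9.80 and 9.81 in F191G. Wdr3 read 9.12, 9.05 and 9.06 in VEC, 8.39, 8.75 and 8.92 in WT, 9.13, 8.97 and 8.93 in AQA, 9.16, 9.13 and 9.14 in DQD and 9.24, 9.05 and 9.06 in F191G. Utp20 read 9.20, 9.05 and 9.11 in VEC, 8.42, 8.78 and 8.92 in WT, 8.78, 8.81 and 8.88 in AQA, 9.27, 9.14 and 9.15 in DQD and 9.28, 9.001 and 9.02 in F191G. For each of these the lowest reading was on WT replicate A, and the AQA arrays lay within the WT range in Utp20 and above all WT arrays in Wdr3 and Wdr36.

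Some small subunit genes stood outside the pattern. Imp3, which works beside Imp4 in the U3 snoRNP, was the only gene with a positive difference, 0.21 (SE 0.109, limma adjusted p = 0.234). Imp3 read 10.70, 10.61 and 10.63 in VEC, 11.14, 10.72 and 10.72 in WT, 10.71, 10.84 and 10.66 in AQA, 10.50, 10.75 and 10.68 in DQD and 10.57, 10.74 and 10.68 in F191G. WT replicate A was its highest array, and WT replicates B and C lay within the range of AQA and DQD. Nop14 read 9.27, 9.18 and 9.15 in VEC, 8.92, 9.21 and 9.36 in WT, 9.23, 9.24 and 9.29 in AQA, 9.34, 9.29 and 9.37 in DQD and 9.53, 9.26 and 9.28 in F191G. Only WT replicate A lay below the other groups, and the difference was -0.03 (SE 0.1005, limma adjusted p = 0.888). Nob1, the endonuclease that makes the mature 18S end, read 10.33, 10.30 and 10.23 in VEC, 10.18, 10.13 and 10.17 in WT, 10.15, 10.07 and 10.06 in AQA, 10.11, 10.14 and 10.13 in DQD and 10.10, 10.26 and 10.13 in F191G. Here VEC had the highest mean and the ranges of the 4 Twist1 groups met, with -0.13 (SE 0.0585, limma adjusted p = 0.173) for WT. Neither Imp3, Nop14 nor Nob1 passed the test, and the other 5 that did not were Wdr43, Utp15, Wdr75, Tsr1 and Bysl.

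Of the 13 measured 60S assembly genes, 8 fell: Ebna1bp2, Gnl3, Nip7, Bop1, Rrp1b, Wdr12, Pes1 and Ddx18. Ebna1bp2, a 60S assembly factor named for binding a viral antigen, read 8.65, 8.65 and 8.86 in VEC, 7.78, 8.22 and 8.10 in WT, 8.65, 8.48 and 8.52 in AQA, 8.604, 8.52 and 8.61 in DQD and 8.81, 8.57 and 8.59 in F191G. Its 3 WT arrays lay below all 12 others. It had the smallest p-value of the 44 genes, with -0.69 (SE 0.109, limma adjusted p = 0.00546), or -0.56 (adjusted p = 0.0111) without WT replicate A. Gnl3, nucleostemin, a nucleolar GTPase, read 9.90, 9.92 and 10.01 in VEC, 9.32, 9.66 and 9.57 in WT, 9.90, 9.78 and 9.91 in AQA, 9.96, 9.89 and 9.87 in DQD and 10.04, 9.87 and 9.88 in F191G. WT was lowest throughout, with -0.42 (SE 0.0863, limma adjusted p = 0.0118), or -0.32 (adjusted p = 0.0358) without WT replicate A. Nip7 read 8.501, 8.64 and 8.59 in VEC, 8.16, 8.28 and 8.34 in WT, 8.38, 8.28 and 8.29 in AQA, 8.47, 8.57 and 8.47 in DQD and 8.58, 8.42 and 8.44 in F191G. WT and AQA overlapped, both below VEC, and WT differed from VEC by -0.32 (SE 0.0699, limma adjusted p = 0.0152), or by -0.26 (adjusted p = 0.0629) without WT replicate A. Bop1, which forms the PeBoW complex with Pes1 and Wdr12, read 10.66, 10.48 and 10.55 in VEC, 9.76, 10.16 and 10.29 in WT, 10.27, 10.15 and 10.19 in AQA, 10.63, 10.49 and 10.49 in DQD and 10.60, 10.46 and 10.43 in F191G. WT and AQA overlapped here as well, and WT differed from VEC by -0.49 (SE 0.113, limma adjusted p = 0.0174), or by -0.33 (adjusted p = 0.0395) without WT replicate A.

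All 3 genes of the PeBoW complex fell. Beside Bop1, Wdr12 differed by -0.61 (SE 0.165, limma adjusted p = 0.0314) and Pes1 by -0.45 (SE 0.122, limma adjusted p = 0.0327). Only Bop1 of the 3 passed without WT replicate A, and Wdr12 differed by -0.36 (adjusted p = 0.0723) and Pes1 by -0.28 (adjusted p = 0.116). The helicase gene Ddx18 differed by -0.38 (SE 0.103, limma adjusted p = 0.0324), or by -0.24 (adjusted p = 0.110) without that array, which no longer passed. A second probe set of Wdr12 and one of Ddx18 gave WT minus VEC differences of -0.60 and -0.38. As for Fbl, the annotation does not say which copy each of these probe sets reads. Rrp1b read 8.89, 8.63 and 8.89 in VEC, 7.69, 8.46 and 8.29 in WT, 8.65, 8.42 and 8.71 in AQA, 8.97, 8.86 and 8.80 in DQD and 9.06, 8.68 and 8.68 in F191G, and its difference was -0.66 (SE 0.172, limma adjusted p = 0.0278), or -0.42 (adjusted p = 0.0802) without WT replicate A, which no longer passed. WT replicate A lay 0.60 below the lower of the other WT arrays there. The 5 genes that did not pass were Noc3l, Nop2, Nop16, Rrs1 and Ftsj3, with differences between -0.14 for Nop16 and -0.45 for Rrs1. Nop2, whose promoter carries CACGTG, differed by -0.42 (SE 0.141, limma adjusted p = 0.0664).

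**Figure D3:**
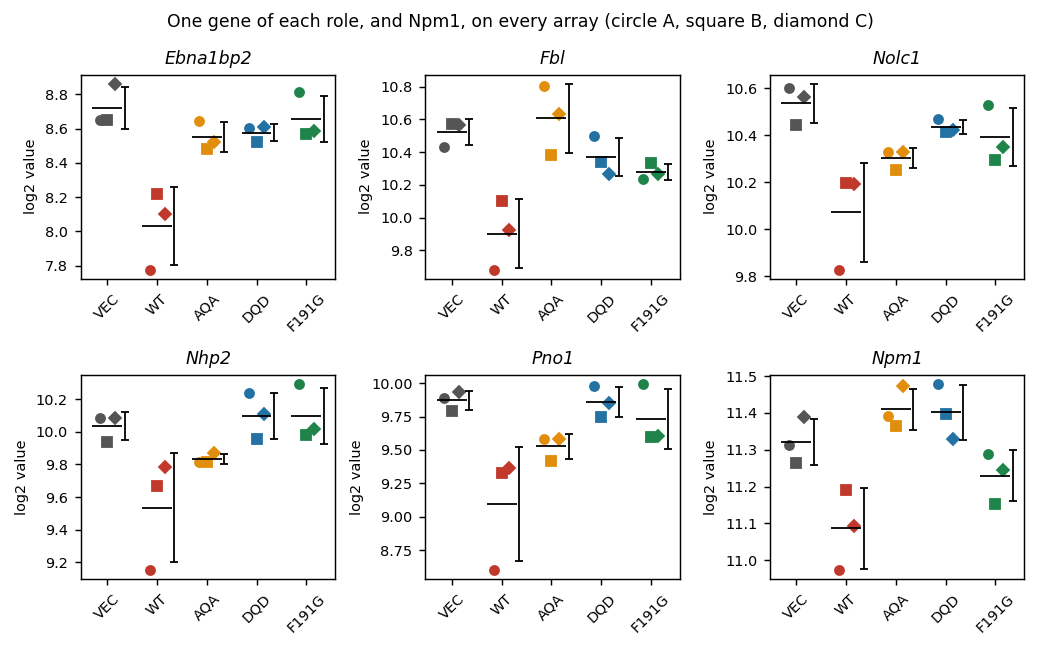
Log2 values of 6 genes on every array by group (circle replicate A, square B, diamond C), with the mean (line) and SD (bar) of 3 arrays. WT lies lowest in every panel, and for Npm1 its range meets that of F191G.

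F191G against VEC asked what the Twist-box mutant changed. None of the 44 genes passed in F191G against VEC by limma, against 0.0985% of all genes called in either direction. Under an unadjusted p of 0.05 were 0 of the 44 and 11.7% of all genes. The median was -0.01, with 24 genes below 0 and 20 above, and 0.03 with each array centred on its median. The difference was lowest for Fbl at -0.24 and highest for Nop14 at 0.16, whose F191G replicate A was the highest of its 15 arrays. The batches differed in sign. Within batch A, which holds F191G replicate A, the median was 0.17 and 38 of the 44 genes lay above VEC, and within batch B it was -0.11 and 40 lay below.

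None of the 44 genes passed in AQA against VEC, where 0.881% of all genes were called in either direction. By limma 9 of the 44 genes were under an unadjusted p of 0.05, all lower in AQA, against 8.87% of all genes that were lower and 3030 of all 19297 in either direction. The median was -0.15, and 38 of the 44 were below 0. All AQA arrays lay below all VEC arrays for 23 of the 44 genes, against 16.2% of all genes. The 9 included Nip7 with -0.26 (SE 0.0699, limma adjusted p = 0.0985), Bop1 with -0.36 (SE 0.113, limma adjusted p = 0.148) and Rrp12 with -0.49 (SE 0.153, limma adjusted p = 0.150). Bysl, the bystin of 40S assembly, read 9.12, 8.90 and 8.90 in VEC, 8.27, 8.57 and 8.87 in WT, 8.52, 8.65 and 8.62 in AQA, 9.04, 8.91 and 8.99 in DQD and 9.11, 8.80 and 8.85 in F191G, and AQA differed from VEC by -0.38 (SE 0.130, limma adjusted p = 0.182). Its AQA arrays lay within the range of its WT arrays and below VEC. Leaving WT replicate A out of the model, which changes the estimate of the spread for all genes, called 3 genes lower. The share of all genes called in that fit is not given here, so this count cannot be read as particular to the 44. Within batch A the median was -0.14 and within batch B -0.17, with 38 genes below 0 in each. Over all genes 99 were called higher and 71 lower, and 87 and 30 with each array centred on its median. The mean of AQA lay between those of WT and VEC for 37 of the 44 genes.

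None of the 44 genes passed in DQD against VEC, where 0.814% of all genes were called in either direction. By limma 1 gene was under an unadjusted p of 0.05, Nob1, with -0.16 (SE 0.0600, limma adjusted p = 0.137), against 16.5% of all genes that were lower at that p. The median of the 44 was 0.007, with 24 above 0 and 20 below, and it was 0.089 with median centring and -0.033 with repeated quantile normalization, so it had no settled direction. Within batch A it was 0.08 and within batch B -0.045. Over all genes 80 were called higher and 77 lower, and 357 and 33 with median centring. The value was highest for Ncl, at 0.19, where all DQD arrays lay above all VEC arrays. A p-value that misses the threshold does not show that F191G, AQA or DQD and VEC were alike, and the comparisons with VEC share its 3 arrays.

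**Figure D4:**
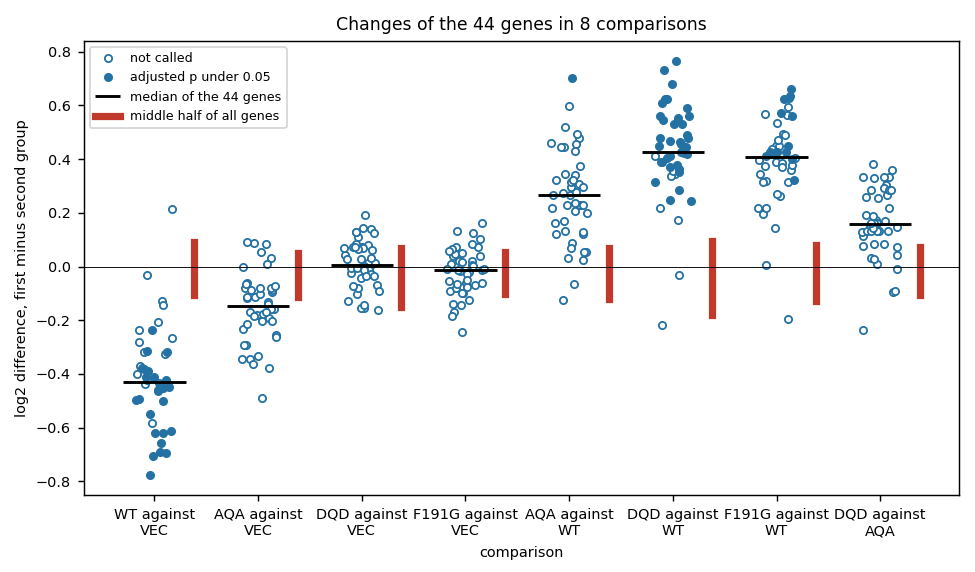
Log2 differences of the 44 genes in each of the 8 comparisons, filled where the limma adjusted p was under 0.05, with the median of the 44 (black line) and the interquartile range of all genes (red bar). All points but Imp3 lie below 0 in WT against VEC and most lie above 0 in DQD and F191G against WT, and they centre near 0 in DQD and F191G against VEC.

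The Twist1 forms were also set against wild-type Twist1, comparisons that share the 3 WT arrays with each other and with WT against VEC. In DQD, 35 of the 44 genes were higher than in WT and 0 lower, against 11.8% of all genes called higher. The median was 0.42, and 42 of the 44 genes were above 0. All DQD arrays lay above all WT arrays for 40 of the 44 genes, against 20.2% of all genes. All 8 RNA polymerase I and scaffold genes rose, 3 of the 4 box C/D genes, all 3 box H/ACA genes, 12 of the 16 small subunit genes and 9 of the 13 60S genes. Ebna1bp2 had the smallest p-value, with 0.55 (SE 0.112, limma adjusted p = 0.0119), and Pno1 the largest rise, with 0.76 (SE 0.175, limma adjusted p = 0.0152). Rrp1b rose by 0.73 (SE 0.176, limma adjusted p = 0.0170), Npm1 by 0.32 (SE 0.0731, limma adjusted p = 0.0153) and Wdr36 by 0.53 (SE 0.129, limma adjusted p = 0.0175). These 5 still passed by limma without WT replicate A, with 0.42 (adjusted p = 0.0194) for Ebna1bp2, 0.53 (adjusted p = 0.0168) for Pno1, 0.51 (adjusted p = 0.0272) for Rrp1b, 0.26 (adjusted p = 0.0420) for Npm1 and 0.36 (adjusted p = 0.0234) for Wdr36. The 9 that did not pass were Nop56, Nop2, Pes1, Nop16, Rrs1, Wdr75, Nop14, Imp3 and Nob1.

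Without WT replicate A, 19 genes were higher in DQD than in WT, against 5.51% of all genes, with a median of 0.28. All DQD arrays lay above the remaining WT arrays for 40 genes, against 22.6% of all genes, a number that leaving out an array cannot lower. Without DQD replicate A, no gene of the 44 and 0 of all 19297 genes were called by limma, while the median of the 44 was 0.39 and 32 were under an unadjusted p of 0.05, as were 5504 of all genes. Within batch A, which has 1 DQD array, the median was 0.59 and 0 of the 44 and of all genes were called. Within batch B, which has 1 WT array, the median was 0.21 and 1 gene was called, against 0.84% of all genes called higher. The lone array is again assumed to vary like the other groups. Over all genes the split of calls in DQD against WT moved with scaling, from 2272 higher and 2463 lower to 3885 higher and 926 lower when each array was centred on its median. Centring moved the median of all genes from -0.067 to 0.043 and that of the 44 from 0.42 to 0.53, and it called 40 of the 44 higher and 0 lower.

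In F191G, 14 of the 44 genes were higher than in WT and 0 lower, against 3.18% of all genes called higher. The median was 0.41, and 43 of the 44 genes were above 0. All F191G arrays lay above all WT arrays for 36 of the 44 genes, against 15.0% of all genes. Ebna1bp2 rose by 0.62 (SE 0.112, limma adjusted p = 0.0207), Gnl3 by 0.41 (SE 0.0885, limma adjusted p = 0.0313) and Wdr43, a processome component, by 0.40 (SE 0.0969, limma adjusted p = 0.0366). Wdr43 read 10.49, 10.53 and 10.55 in VEC, 10.01, 10.37 and 10.38 in WT, 10.49, 10.39 and 10.50 in AQA, 10.71, 10.55 and 10.63 in DQD and 10.78, 10.60 and 10.59 in F191G. WT lay below every other array, and F191G replicate A was the highest of all 15. Tsr1, a GTPase-like factor of late 40S assembly, read 9.43, 9.29 and 9.47 in VEC, 8.87, 9.14 and 9.21 in WT, 9.11, 9.15 and 9.16 in AQA, 9.43, 9.498 and 9.35 in DQD and 9.72, 9.46 and 9.32 in F191G. Its WT and AQA ranges met, F191G lay above both, and F191G rose by 0.43 (SE 0.110, limma adjusted p = 0.0409) over WT. Rrp12 rose by 0.63 (SE 0.157, limma adjusted p = 0.0385) and Nhp2 by 0.56 (SE 0.143, limma adjusted p = 0.0405). With WT replicate A left out 1 gene was called, Ebna1bp2, against 0.21% of all genes called higher, and the median was 0.26. The differences were then 0.50 (adjusted p = 0.0342) for Ebna1bp2, 0.32 (adjusted p = 0.0630) for Gnl3, 0.28 (adjusted p = 0.0758) for Wdr43, 0.33 (adjusted p = 0.106) for Tsr1, 0.46 (adjusted p = 0.0850) for Rrp12 and 0.38 (adjusted p = 0.0764) for Nhp2. Without F191G replicate A 0 of the 44 and 0 of all 19297 genes were called by limma, and the median of the 44 was 0.28, with 18 of the 44 and 2791 of all genes under an unadjusted p of 0.05. Within batch A, with 1 F191G array, the median was 0.67, and within batch B, with 1 WT array, it was 0.13, with 0 of the 44 called in each. Each of the 15 arrays moved the count when left out: it was 33 without WT replicate B or C, 9 without VEC replicate B or AQA replicate B, and 5 or fewer without any of the others. The share of all genes called higher moved too. It was 7.92% and 5.11% without WT replicates B and C, 2.11% without VEC replicate B, 2.39% without AQA replicate B and at most 2.16% without any of the others. Over all genes the split of calls was 613 higher and 762 lower, and 1141 higher and 460 lower with each array centred on its median, which called 23 of the 44 genes.

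In AQA, Fbl was the 1 gene of the 44 called higher than in WT and 0 were called lower, against 0.306% of all genes called higher. Fbl rose by 0.70 (SE 0.117, limma adjusted p = 0.0455), and its second probe set had means of 9.76 in AQA and 9.38 in WT. That second probe set put AQA below VEC (9.82), while the one used put AQA above VEC. Which copy of Fbl each probe set reads is not known, so this call is uncertain to that extent. By limma 22 of the 44 genes were under an unadjusted p of 0.05, all higher in AQA, against 11.6% of all genes. The median was 0.27, with 42 genes above 0, and without WT replicate A it was 0.08. Within batch A it was 0.33 and within batch B 0.10. All AQA arrays lay above all WT arrays for 21 of the 44 genes, against 11.7% of all genes. Npm1 differed by 0.32 (SE 0.0713, limma adjusted p = 0.0531), with all AQA arrays above all WT arrays. Over all genes 59 were called higher and 81 lower, and 0 and 0 with each array centred on its median. The count among the 44 was 12 without WT replicate B, 5 without AQA replicate B, and 0 or 1 without any other array, with 0 without WT replicate A. The shares of all genes called in these fits are not given here, so these counts cannot be read as particular to the 44.

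DQD and AQA were then compared with each other, which shares no array with WT against VEC. None of the 44 genes passed in DQD against AQA, where 0.0259% of all genes were called in either direction. By limma 6 of the 44 genes were under an unadjusted p of 0.05, all higher in DQD, against 6.63% of all genes that were higher and 2811 of all 19297 in either direction. The median was 0.16, with 40 of the 44 above 0, and it was 0.25 within batch A and 0.11 within batch B. All DQD arrays lay above all AQA arrays for 24 of the 44 genes, against 13.3% of all genes. Utp20 differed by 0.36 (SE 0.116, limma adjusted p = 0.200), Bop1 by 0.33 (SE 0.116, limma adjusted p = 0.227) and Bysl by 0.38 (SE 0.133, limma adjusted p = 0.228). In these 3 genes every DQD array lay above every AQA array. With WT replicate A left out of the model 1 gene was called higher, and the share of all genes called in that fit is not given here.

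Other genes of ribosome production were counted by lists. In WT against VEC 5.72% of all genes fell and 7.06% rose, the shares to set beside each list. Among 92 measured genes of 96 listed as other ribosome biogenesis factors, 35 fell and 1 rose in WT against VEC, with a median of -0.24. Mak16, a 60S factor, fell by 0.59 (SE 0.0933, limma adjusted p = 0.00546), Rsl24d1, also of the 60S pathway, by 0.52 (SE 0.0826, limma adjusted p = 0.00546), and the large 60S remodelling ATPase Mdn1 by 0.51 (SE 0.0849, limma adjusted p = 0.00664). The 1 that rose was Nop53, also a 60S factor, with 0.35 (SE 0.0661, limma adjusted p = 0.00947), named here after its value was seen. Without WT replicate A 15 fell and 1 rose, without VEC replicate A 20 fell and 2 rose, and without VEC replicate C 2 fell and 0 rose. Among the 13 genes of other RNA polymerase I subunits and factors, 2 fell, the subunit gene Polr1e by 0.54 (SE 0.107, limma adjusted p = 0.0108) and the initiation factor gene Rrn3 by 0.30 (SE 0.0615, limma adjusted p = 0.0117). Both calls were lost without VEC replicate C.

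The cytosolic ribosomal proteins are the structural parts of the ribosome, and 54 measured genes of 79 listed had a median of 0.03 in WT against VEC. Of them 2 fell, Rpl30 by 0.30 (SE 0.0746, limma adjusted p = 0.0249) and Rpl9 by 0.24 (SE 0.0679, limma adjusted p = 0.0395), and 0 rose, with 8 under an unadjusted p of 0.05 by limma, against 27.6% of all genes. Leaving out single arrays gave between 0 and 2 falls and at most 1 rise, with 0 falls without WT replicate A or VEC replicate B or C. On WT replicate A, where the nucleolar genes were lowest, the average of the ribosomal protein genes was 0.05 above VEC. Many ribosomal protein genes have near-identical copies in the genome, and the remaining listed genes had no probe set of their symbol alone. Of 22 measured genes of the nuclear exosome and RNase MRP list, which trim and cleave the ribosomal RNA precursor, 6 fell and 0 rose, among them Rpp14 by 0.36 (SE 0.0764, limma adjusted p = 0.0129), Exosc3 by 0.44 (SE 0.105, limma adjusted p = 0.0204) and Exosc7 by 0.49 (SE 0.122, limma adjusted p = 0.0242). Leaving out WT replicate A gave 1 fall, VEC replicate A or B 2, VEC replicate C 0 and WT replicate B 13.

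RNA polymerase III, which transcribes 5S ribosomal RNA and transfer RNAs, had calls in both directions. Of 18 measured genes of RNA polymerase III subunits and factors 4 fell and 2 rose in WT against VEC. Over all genes 5.72% fell and 7.06% rose there. Without WT replicate A 0 of the 18 fell and 2 rose, against 1.69% and 2.68% of all genes. Leaving out other single arrays gave between 0 and 4 falls and 1 or 2 rises, with 0 falls and 1 rise without VEC replicate C. The repressor gene Maf1 rose by 0.52 (SE 0.0830, limma adjusted p = 0.00546) and Polr3gl, a subunit that takes the place of the Polr3g product in the enzyme, by 0.62 (SE 0.121, limma adjusted p = 0.0103). Polr3k, a small subunit of the enzyme, fell by 0.25 (SE 0.0679, limma adjusted p = 0.0343). In the list of Myc, Max and antagonists the antagonist genes Mxd4 and Mxd1 rose in WT, by 1.39 (SE 0.245, limma adjusted p = 0.00735) and 0.42 (SE 0.122, limma adjusted p = 0.0403). Leaving out single arrays gave between 0 and 2 rises in that list, with 1 when WT replicate A and 0 when VEC replicate C was left out. Mxd4 read 7.54, 7.42 and 7.07 in VEC, 9.34, 8.19 and 8.68 in WT, 7.30, 7.92 and 7.52 in AQA, 7.19, 7.54 and 7.36 in DQD and 7.21, 7.58 and 7.52 in F191G. Every WT array lay above every other array, with WT replicate A the highest. Myc itself read 9.56, 9.94 and 10.08 in VEC, 10.27, 10.16 and 10.27 in WT, 9.46, 9.86 and 9.66 in AQA, 10.23, 10.33 and 10.25 in DQD and 10.65, 10.10 and 10.31 in F191G. The Myc ranges of WT and VEC did not overlap, and the difference of 0.37 (SE 0.150, limma adjusted p = 0.124) did not pass. Whether the probe set reads the Myc transgene as well was not tested.

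In DQD against WT, where 35 of the 44 nucleolar genes rose, 56 of the 92 other ribosome biogenesis factors rose, 7 of the 13 other RNA polymerase I subunits and factors, 12 of the 22 nuclear exosome and RNase MRP genes and 1 of the 54 cytosolic ribosomal proteins. Over all genes 11.8% were called higher in that comparison. Of the 24 DNA replication and mitosis genes 21 rose there, and 9 without DQD replicate C, against 8.36% of all genes in that fit. Without DQD replicate A none of these rose, and 0 of all genes did. Without WT replicate A 28 of the other ribosome biogenesis factors and 2 of the other RNA polymerase I subunits and factors rose, against 5.51% of all genes. Of the RNA polymerase III subunits and factors 9 rose and 2 fell, against 11.8% and 12.8% of all genes. Without WT replicate A 1 of them rose and 2 fell, against 5.51% and 5.46% of all genes.

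**Figure D5:**
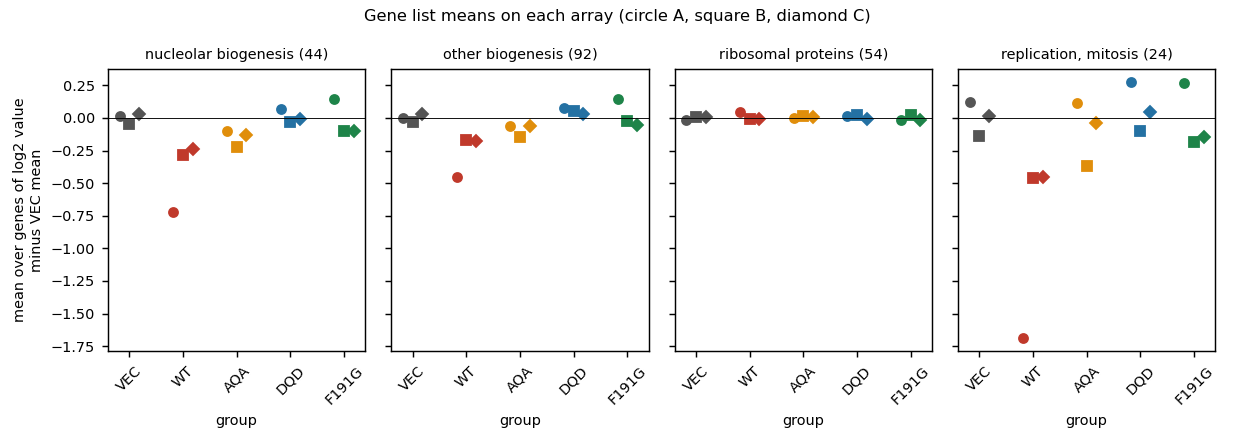
Mean over the genes of a list of the log2 value minus the gene's VEC mean, for each array (circle replicate A, square B, diamond C) in 5 groups. The 44 nucleolar genes, the 92 further biogenesis factors and the replication and mitosis genes are lowest on WT replicate A, while the ribosomal protein genes stay near 0 on all arrays.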

How the data were processed

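RNA levels were read on 15 Affymetrix mouse gene arrays of a single colour, in 5 groups of 3. The deposited log2 values of 23811 probe sets were made by the authors with RMA and limma, per the submitters' processing notes, with versions not given in the sources used here. RMA corrects background, quantile-normalizes the arrays and summarizes probes. The design text also names normalization by Twist1 expression, with no form given, so its effect on the deposited values is unknown. No detection calls were used, and precision is limited by the number of arrays.

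In the platform annotation 20852 probe sets carry 1 symbol, 1440 several and 1519 are not listed. Gene identifiers matched the reference for 20805 probe sets, which updated 0 symbols. For each gene the probe set with the highest mean was kept, 3 of the 44 genes having a choice, and no dim genes were left out. One linear model over all 15 arrays, with terms for group and batch, was fitted in limma 3.58.1 (R 4.3.3; 9 residual and 3.93 prior degrees of freedom), and p-values were adjusted by Benjamini and Hochberg over 19297 genes and called under 0.05. The model was also run on simulated data with independent noise for each gene and no array that stands apart. That run cannot show how single arrays move the counts. Genes given with every array are, in each role, up to 4 called in WT against VEC with the smallest p, up to 10 called in each other comparison, and Twist1 and Myc. Up to 3 of each other list are given by their difference. All 44 may be named. Ncl, Dkc1, Imp3, Nop14, Nob1, Bysl and Mxd4 are also given with every array, chosen after their values were seen. The genes and lists were chosen with earlier results of these data known. As alternatives the model was refitted with no batch term, with a block for the replicate letter (batch kept or dropped), with Twist1 values as covariate, on the compared arrays only, under 2 other scalings, without the dimmest 33.3% of genes, on the mean of a gene's probe sets, with a variance trend, with array weights, within each batch, and with each array left out. Leaving out WT replicate A and F191G replicate A together, and counts of the other lists without single arrays, were added after the data were seen. Promoters came from RefSeq on GRCm38.p6. Figures were drawn with matplotlib 3.10.9.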

Additional observations from a re-analysis of the deposited data

How the results depend on the processing

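No called gene of the 44 changed sign under any alternative run, while the medians of F191G and of DQD against VEC, where no gene was called, did. The counts of calls depended on the model and on single arrays. In WT against VEC, where 25 genes were called lower, 12 were with the replicate block and batch, 0 with the Twist1 value as a covariate, 0 in batch A alone, 1 in batch B alone, 0 with only the arrays compared and 16 without WT replicate A and F191G replicate A together. With the Twist1 covariate, in batch A alone and with only the arrays compared, limma called 6, 0 and 1 of all 19297 genes lower and 11, 0 and 9 higher, and the median of the 44 was -0.40, -0.51 and -0.43. The median of -0.43 became -0.25 in batch B alone and -0.25 without those 2 arrays. Of all genes 5.72% were called lower in the main model, 2.84% with the replicate block and batch and 2.61% without WT replicate A and F191G replicate A together. Leaving out single arrays gave counts from 1 to 36 and medians from -0.55 to -0.24, with 0.21% to 8.45% of all genes called lower. The cause of these shifts was not tested.

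In F191G against WT, where 14 were called higher, the counts were 32 without the batch term, 7 and 1 with the replicate block without and with batch, 23 and 9 with median centring and with repeated quantile normalization, 2 with the Twist1 covariate, 0 in either batch alone, 0 with only the arrays compared and 0 without both arrays. The median of 0.41 became 0.67 in batch A, 0.13 in batch B and 0.16 without both arrays. Of all genes 3.18% were called higher in the main model, 7.44% without the batch term and 1.89% and 0.13% with the replicate block without and with batch. The share was 5.91% with median centring, 2.67% with repeated quantile normalization and 0.85% with the Twist1 covariate, and 0 genes were called with only the arrays compared. In AQA against WT, where 1 was called, the counts were 6 without the batch term, 0 with either replicate block, median centring, the Twist1 covariate, either batch alone, only the arrays compared or without both arrays, 3 with repeated quantile normalization or a variance trend, 4 without the dimmest genes and 13 with array weights. The median of 0.27 became 0.10 in batch B and 0.089 without both arrays. In DQD against WT, where 35 were called, the counts were 22 with the replicate block and batch, 0 in batch A, 1 in batch B and 0 with only the arrays compared. The median of 0.42 became 0.59 in batch A, 0.21 in batch B and 0.27 without both arrays. Of all genes 11.8% were called higher in the main model and 6.36% with the replicate block and batch, and 0 were called with only the arrays compared.

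Among comparisons with 0 calls, AQA against VEC gave 4 with array weights and 8 without both arrays, DQD against AQA 10 with array weights and 4 without both arrays, and the median of F191G against VEC, -0.01, was 0.17 in batch A. Leaving out single arrays gave counts from 0 to 33 and medians from 0.26 to 0.56 in F191G against WT, counts from 0 to 12 and medians from 0.083 to 0.37 in AQA against WT, and counts from 0 to 39 and medians from 0.28 to 0.56 in DQD against WT. It gave counts from 0 to 3 in AQA against VEC and from 0 to 1 in DQD against AQA. The share of all genes called higher then ran from 0 to 7.92% in F191G against WT and from 0 to 13.5% in DQD against WT. It is not given for AQA against WT, AQA against VEC or DQD against AQA.

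The labels do not say whether arrays with one replicate letter were paired. Deviations from the group means of arrays with one letter and batch correlated between -0.85 and 0.22, and over 0.1 in 4 of 24 pairs. Deviations within a group cancel each other by construction, so these values cannot exclude a pairing. The probe sets carry no detection calls, so no limit of signal over background can be given.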
